A study of Mus musculus with 6 samples.

Results

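The 6 mature microRNAs (miRNAs) mmu-miR-322-5p, mmu-miR-322-3p, mmu-miR-503-5p, mmu-miR-351-5p, mmu-miR-542-3p and mmu-miR-450a-5p, written below without the species prefix, come from 1 cluster of hairpins on the mouse X chromosome. They were found by their full mature names among the 1899 mature miRNA entries of each library, where each stands in a row of its own. Small RNA was sequenced from mouse embryonic stem cells (ES cells) of strain 129/Ola, with 1 library for each of 6 groups. The groups were Wt1 knockout (KO) cells given retinoic acid (RA), wild-type (WT) cells given RA, untreated Wt1 KO cells, Wt1 KO cells after 12 h and after 24 h of doxycycline (dox), and untreated WT cells. RA, a derivative of vitamin A under which ES cells differentiate, was used at 1 µM, taking the 1 µm of the labels to mean micromolar. Per the labels and design text, dox at 1 µg/ml served to induce Wt1, which encodes a zinc finger transcription factor. The medium held serum and leukemia inhibitory factor over gelatin in all groups, and the duration of RA is not given in the sources used here. The labels do not name the line or clone that carries the inducible Wt1, so a difference between lines and an effect of dox cannot be told apart. Wt1 itself is not read by small RNA sequencing, so its loss and its induction were not checked here.

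A miRNA is cut from a hairpin in a longer transcript, and either strand of the hairpin (the 5p or the 3p arm) can enter the silencing complex. The complex finds its target mRNAs mainly by the seed, bases 2 to 8 of the miRNA, so miRNAs with the same seed can bind the same sites. miR-322-5p, called miR-424 in human, and miR-503-5p belong to the wider miR-15 and miR-16 family, known for holding back the cell cycle through cyclins and their partners. In mouse, miR-322 and miR-503 are known for their presence in early heart progenitors and in differentiating muscle. miR-351-5p carries the seed of miR-125, a family known for repressing Lin28a in differentiating cells.

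The mature sequences below are those of RefSeq on build GRCm38.p6, from 5′ to 3′, with the seed in capitals, and they are identical to the sequences in the deposited tables. They are shown because the seeds set which members can share targets, and with which miRNAs outside the cluster.
miR-322-5p: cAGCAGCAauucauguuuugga
miR-322-3p: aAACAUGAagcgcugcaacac
miR-503-5p: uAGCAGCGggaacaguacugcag
miR-351-5p: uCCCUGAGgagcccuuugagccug
miR-542-3p: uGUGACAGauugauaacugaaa
miR-450a-5p: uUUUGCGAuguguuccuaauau
miR-16-5p, for comparison: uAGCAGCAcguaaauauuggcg
miR-125a-5p, for comparison: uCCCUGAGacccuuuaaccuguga
miR-125b-5p, for comparison: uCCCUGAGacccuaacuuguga
The 6 members carry 6 different seeds. The seed AGCAGCA of miR-322-5p is also that of miR-16-5p, and the seed AGCAGCG of miR-503-5p is shared by no other entry. miR-351-5p and miR-125a-5p are identical over their first 8 bases and at 10 of 24 positions in all, so the 2 miRNAs can be told apart by the reads. None of the 13 entries of the locus had a read that matched several entries.

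In RefSeq the 7 hairpins of the locus lie on the minus strand of chromosome X within 6353 bases, at X:53047997-53054349. In the direction of transcription the order is Mir322, Mir503, Mir351, Mir542, Mir450-2, Mir450-1 and Mir450b. Mir503 starts 200 bases after Mir322 ends and Mir351 630 bases after Mir503, followed by a gap of 3767 bases to Mir542. The annotated long noncoding RNA C430049B03Rik (X:53053112-53057190) contains the first 3 hairpins and not the other 4. miR-450a-5p has the same mature sequence from Mir450-1 and from Mir450-2, so its reads cannot be assigned to either hairpin. The build used for the deposited counts is not given in the sources used here, and these positions are RefSeq's.

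The total number of uniquely matched reads ran from 83626 in Wt1 KO with RA to 6106104 in WT with RA, a 73-fold range. The library of Wt1 KO with RA is thus the least precise. Where a library shows no read of a miRNA, 3 counts were taken as the limit. In normalised CPM (reads scaled to a common library size) this limit is 27.8 in Wt1 KO with RA and 0.448 in WT with RA. The 95% counting interval for no read in Wt1 KO with RA reaches higher, to 34.14 CPM. The summed level of 5 ES cell markers (among them miR-294-3p and miR-295-3p) was 47547 CPM in Wt1 KO with RA, 5012 in WT with RA, 123588 in untreated Wt1 KO, 174657 and 152372 at 12 h and 24 h of dox, and 97887 in untreated WT. Its largest part was miR-295-3p, with 33006 CPM in Wt1 KO with RA and 3446 in WT with RA. miR-302d-3p, also on this list, ran against the sum in 2 comparisons. Its level in untreated Wt1 KO was 0.225-fold that in untreated WT, and at 24 h of dox 2.88-fold that at 12 h. Other markers of the list also ran against the sum with dox, by less. At 12 h of dox miR-292a-3p had 22365 CPM and miR-294-3p 18390, below their 27706 and 20274 in untreated Wt1 KO. At 24 h of dox miR-294-3p had 25828 CPM, above its level at 12 h. The sum of 4 miRNAs of the HOX gene clusters, which RA induces, was 18410 CPM in Wt1 KO with RA and 99053 in WT with RA, and between 261.5 and 484.7 in the 4 libraries without RA. Its largest part with RA was miR-10a-5p, with 13356 CPM in Wt1 KO and 73357 in WT. miR-196a-5p did not follow the sum, with 157.3 CPM in Wt1 KO with RA, 79.17 in WT with RA and 42.22 to 164.9 without RA. The 5 ES cell markers were all detected in all 6 libraries. Each group is a single library, so no difference has a replicate check and every comparison below is between libraries. Ratios have a 95% counting interval in brackets, which covers counting error only. Size alone calls an entry: a log2 ratio of 1 or more is higher, one of -1 or less is lower, and in both cases the interval must leave out 0. In bulk libraries, fewer cells with a miRNA and less of it per cell cannot be told apart.

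miR-351-5p was the most abundant member in all 6 libraries. It had 229 reads in Wt1 KO with RA, 44571 in WT with RA, 1166 in untreated Wt1 KO, 978 and 3222 at 12 h and 24 h of dox, and 1720 in untreated WT. As normalised CPM these are 2120 in Wt1 KO with RA, 6658 in WT with RA, 826.3 in untreated Wt1 KO, 864 and 947.1 at 12 h and 24 h of dox, and 1579 in untreated WT. Both RA libraries thus lay above the other 4, WT with RA highest, and the 3 Wt1 KO libraries without RA lay lowest. In this order of levels only the lowest pair, dox 12 h and untreated Wt1 KO, had an interval of their ratio that included 0. The entries analysed here are the 18.5% of the 1899 that averaged 50 counts or more per library, and among them miR-351-5p ranked 47 in Wt1 KO with RA, 23 in WT with RA, 73 in untreated Wt1 KO, 64 and 67 at 12 h and 24 h of dox, and 50 in untreated WT.

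miR-322-5p, the member with the miR-16 seed, was scarce without RA. Its counts were 32 in Wt1 KO with RA, 1976 in WT with RA, 29 in untreated Wt1 KO, 27 and 139 at 12 h and 24 h of dox, and 32 in untreated WT. After scaling these were 296.2 CPM in Wt1 KO with RA, 295.2 in WT with RA, 20.55 in untreated Wt1 KO, 23.85 and 40.86 at 12 h and 24 h of dox, and 29.37 in untreated WT. The equal counts in Wt1 KO with RA and in untreated WT come from libraries of very unequal depth, and after scaling to depth the 2 RA libraries stood together far above the other 4. Within each of these sets no neighbours in the order differed beyond their counting intervals.

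The other arm of the same hairpin, miR-322-3p, had 36 reads in Wt1 KO with RA, 2139 in WT with RA, 31 in untreated Wt1 KO, 18 and 74 at 12 h and 24 h of dox, and 42 in untreated WT. Its levels were 333.2 CPM in Wt1 KO with RA, 319.5 in WT with RA, 21.97 in untreated Wt1 KO, 15.9 and 21.75 at 12 h and 24 h of dox, and 38.55 in untreated WT. Here too the RA libraries stood together above the rest. Untreated WT came next, above untreated Wt1 KO by an interval that excludes 0, and the 3 Wt1 KO libraries without RA did not differ beyond theirs.

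The remaining 3 members had few reads. miR-450a-5p had 1 read in Wt1 KO with RA, 120 in WT with RA, 8 in untreated Wt1 KO, 4 and 18 at 12 h and 24 h of dox, and 7 in untreated WT. miR-503-5p had no read in Wt1 KO with RA, 59 in WT with RA, 7 in untreated Wt1 KO, 2 and 4 at 12 h and 24 h of dox, and 4 in untreated WT. miR-542-3p, known in human cells for repressing survivin, had 1 read in Wt1 KO with RA, 32 in WT with RA and none in the other 4 libraries. Only in the deepest library, WT with RA, did these members reach 30 reads, and there they stood at 17.93 CPM for miR-450a-5p, 8.813 CPM for miR-503-5p and 4.78 CPM for miR-542-3p. For miR-503-5p, without a read in Wt1 KO with RA, the limit there of 27.8 CPM is above its level in every other library, so no difference was detectable there. For miR-542-3p the limits in the 4 libraries without RA ran from 0.882 to 2.75 CPM.

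**Figure D1:**
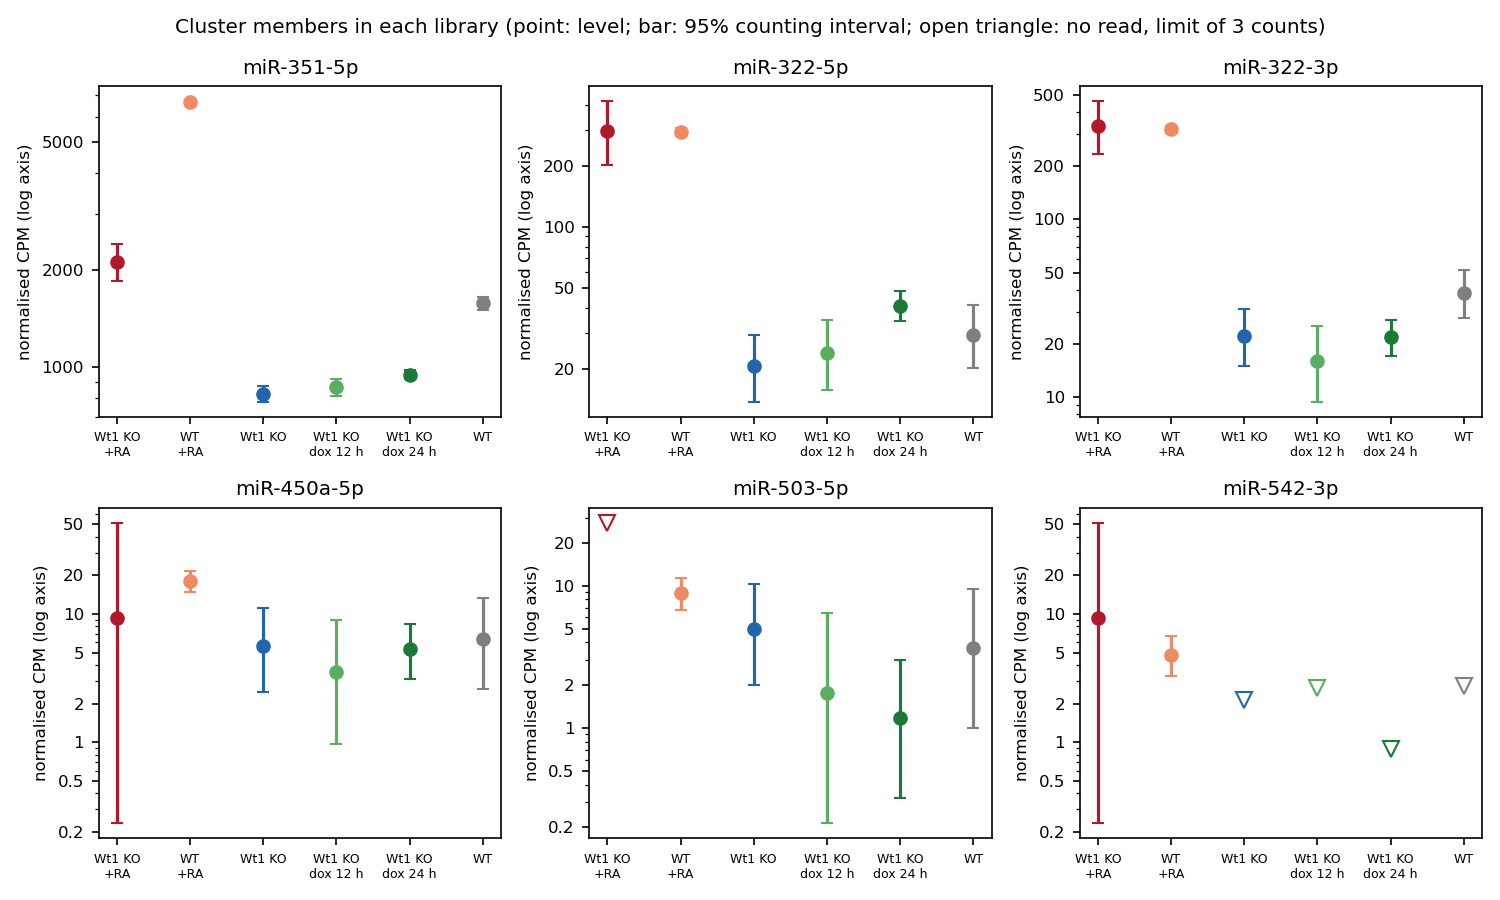
Level of each of the 6 members (normalised CPM, log axes that differ between panels) in the 6 libraries, with 95% counting intervals, and open triangles at the limit of 3 counts where no read was found. miR-351-5p is highest in WT with RA (6658 CPM), while both arms of miR-322 reach about the same level in Wt1 KO with RA and in WT with RA (296.2 and 295.2 CPM for miR-322-5p).

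Together the 6 members took 0.3575% of the reads in Wt1 KO with RA, 0.8008% in WT with RA, 0.07016% in untreated Wt1 KO, 0.08383% and 0.09524% at 12 h and 24 h of dox, and 0.1697% in untreated WT. miR-351-5p held 76.59% of the members' reads in Wt1 KO with RA, 91.15% in WT with RA, and 93.2% to 95.29% in the 4 libraries without RA. The summed level of the members is therefore close to that of miR-351-5p. Without miR-351-5p, the other 5 members summed to 647.9 CPM in Wt1 KO with RA, 646.2 in WT with RA, 53.15 in untreated Wt1 KO, 45.06 and 69.08 at 12 h and 24 h of dox, and 78.02 in untreated WT.

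The other arms of the locus were all scarce. The 7 listed entries (miR-503-3p, miR-351-3p, miR-542-5p, miR-450a-1-3p, miR-450a-2-3p, miR-450b-5p and miR-450b-3p) summed to 74.05 CPM in Wt1 KO with RA from 8 reads, to 73.49 CPM in WT with RA from 492 reads, and to between 18.43 and 31.21 CPM in the 4 libraries without RA. miR-450a-1-3p had no read in any library and miR-450a-2-3p a single read, in WT with RA. miR-450b-5p, from the last hairpin, had 153 reads in WT with RA and between 1 and 42 in the other 5 libraries.

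**Figure D2:**
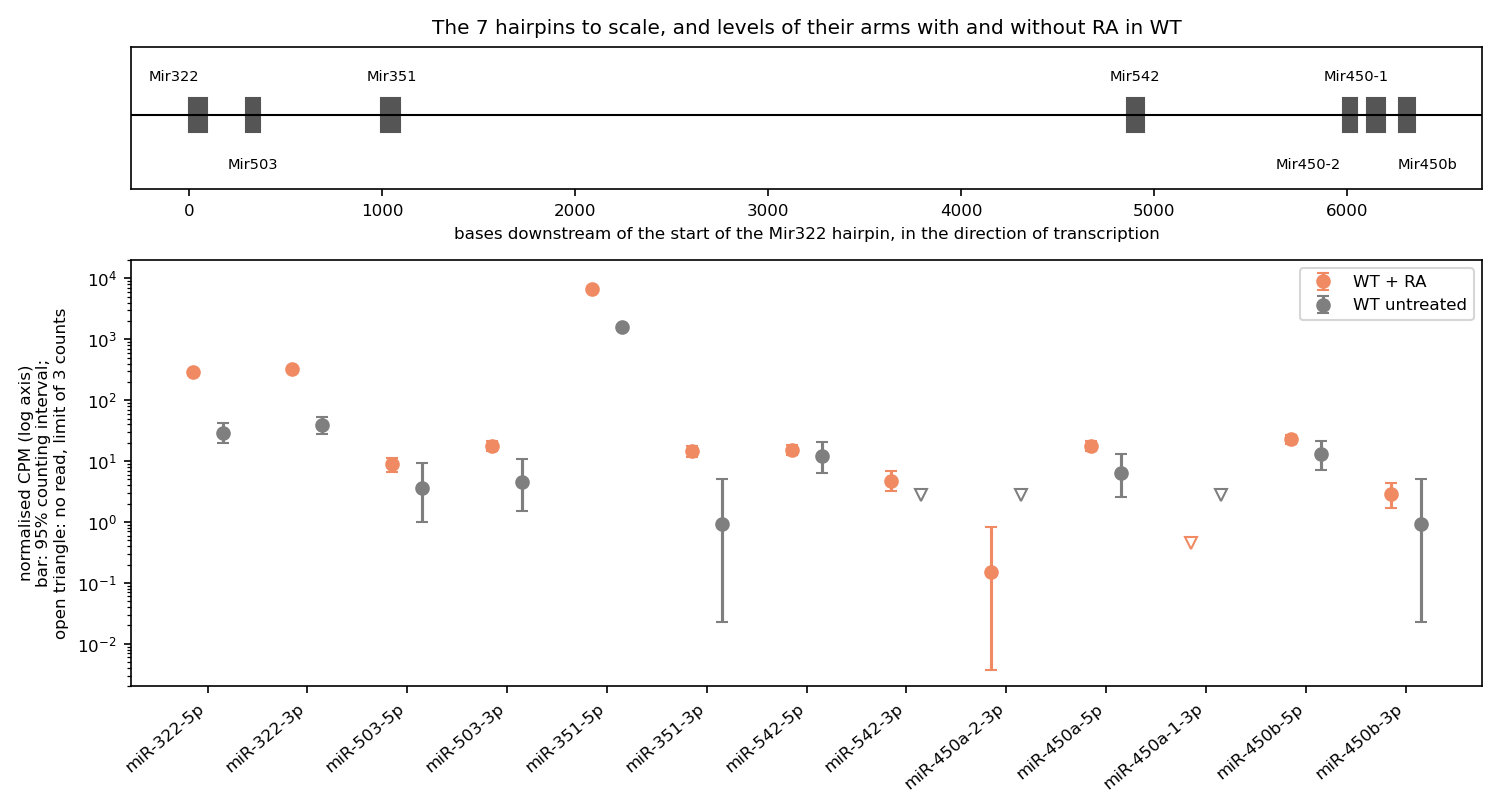
Top: the 7 hairpins to scale, in bases from the start of Mir322 along the direction of transcription; bottom: level of each arm (normalised CPM, log axis, 95% counting intervals, open triangles where no read was found) in WT with RA and in untreated WT. miR-351-5p, from the Mir351 hairpin, stands above both arms of the first, and all arms of the 4 hairpins beyond the long gap lie below 23 CPM in WT with RA.

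WT cells with RA were set against untreated WT cells, the comparison with the most reads. The members from the Mir322 and Mir351 hairpins were higher with RA, miR-322-5p and miR-322-3p by more than miR-351-5p. miR-322-5p had 295.2 CPM in WT with RA and 29.37 in untreated WT, 9.90-fold higher with RA, a log2 ratio of 3.31 [2.83 to 3.88]. miR-322-3p was 8.19-fold higher, at 3.03 [2.61 to 3.53], and miR-351-5p 4.22-fold higher, at 2.08 [2.01 to 2.15]. All 3 members that reached the minimum mean count were thus called higher, against 22.2% of the entries analysed (24.2% were lower). They reached it mostly through this library (WT with RA holds 2139 of the 2340 reads of miR-322-3p), so their number adds nothing to the 3 ratios.

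The members below the minimum gave less precise values in the same comparison. miR-450a-5p had 17.93 CPM in WT with RA and 6.425 in untreated WT, a log2 ratio of 1.39 [0.39 to 2.83] from 120 and 7 reads. miR-503-5p had 8.813 CPM in WT with RA and 3.672 in untreated WT, at 1.11 [-0.17 to 3.19] from 59 and 4 reads. The interval of miR-503-5p includes no change. miR-542-3p, with 32 reads against none, was 1.74-fold higher in WT with RA if untreated WT is set at the limit of 3 counts. This value leaves out the counting error of the 32 reads. Of the other arms, miR-503-3p was at 1.81 [0.68 to 3.59] from 118 and 5 reads and miR-351-3p at 3.42 [1.48 to 9.31] from 98 reads and 1. miR-542-5p, the more abundant arm of its hairpin, was at 0.32 [-0.47 to 1.32] from 103 and 13 reads, and miR-450b-5p at 0.78 [0.04 to 1.74] from 153 and 14.

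Because all hairpins of the locus were read in the same library, the ratio of 2 members within a library does not depend on the scaling. In WT cells the ratio of miR-450a-5p to miR-322-5p was lower with RA by a log2 change of -1.92 [-3.10 to -0.74], that of miR-503-5p to miR-322-5p by -2.20 [-3.67 to -0.73] and that of miR-542-5p to miR-322-5p by -2.99 [-3.95 to -2.03]. The 3 miRNAs thus differed with RA by less than miR-322-5p did, among them miR-503-5p, whose hairpin lies nearest to Mir322. Reads of different miRNAs are joined to the adapters with different efficiency, so such a ratio counts reads and its value in 1 library is no ratio of molecules.

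In Wt1 KO cells, RA was again compared with no treatment. Both arms of miR-322 were higher with RA, and miR-351-5p was higher by less. miR-322-5p had 296.2 CPM in Wt1 KO with RA and 20.55 in untreated Wt1 KO, a log2 ratio of 3.85 [3.08 to 4.63]. miR-322-3p was at 3.92 [3.19 to 4.66] and miR-351-5p, with 2120 CPM in Wt1 KO with RA and 826.3 in untreated Wt1 KO, at 1.36 [1.15 to 1.56]. The 3 analysed members were called higher, against 23.6% of the entries analysed (22.5% were lower). The ratios for miR-322 rest on 32 and 36 reads in the RA library. Scaling moved this comparison for all entries: with plain CPM, taken on the library total, the median entry shifted by 0.70 and the ratio of miR-351-5p was 2.06. miR-450a-5p, with 1 read in Wt1 KO with RA, was at 1.20 [-4.76 to 3.61].

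**Figure D3:**
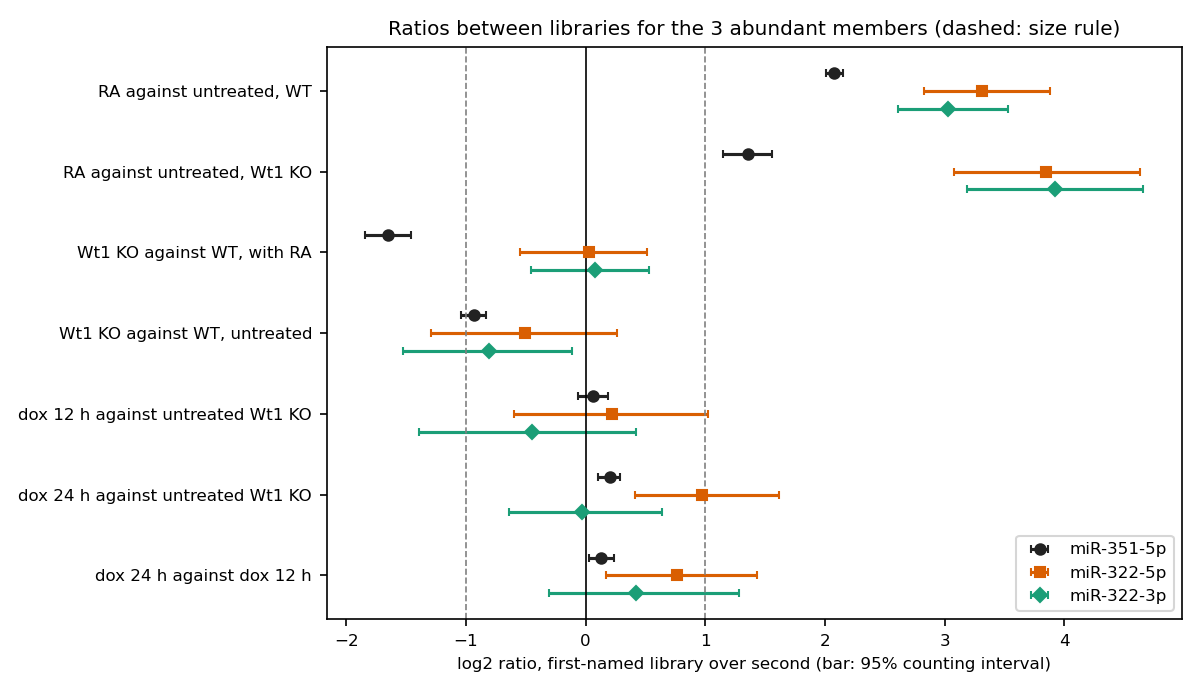
Log2 ratios (horizontal axis, 95% counting intervals) of miR-351-5p, miR-322-5p and miR-322-3p in the 7 comparisons between 2 libraries, with dashed lines at the size rule of 1 and -1. With RA all 3 are higher in both genotypes; with RA, Wt1 KO is lower than WT for miR-351-5p (-1.65) while both miR-322 arms lie near 0.

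The 2 RA libraries were then compared with each other, Wt1 KO against WT. miR-351-5p was lower in Wt1 KO, with 2120 CPM against 6658 in WT, a log2 ratio of -1.65 [-1.84 to -1.46]. Both arms of miR-322 had nearly the same level in the 2 libraries, 296.2 CPM in Wt1 KO and 295.2 in WT for miR-322-5p (0.03 [-0.55 to 0.51]) and 333.2 in Wt1 KO and 319.5 in WT for miR-322-3p (0.08 [-0.46 to 0.53]). These intervals leave room for a difference of the size that either bound gives. Under other scalings the ratio of miR-322-5p ran from -0.39 to 0.40 and that of miR-322-3p from -0.34 to 0.45, so their direction is not determined, while miR-351-5p ran from -2.07 to -1.28. miR-351-5p was the 1 member of 3 called lower, against 19.1% of the entries analysed, and none was called higher, against 18.8%.

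The split between miR-351-5p and miR-322 appears within each library, where scaling has no part. For each read of miR-322-5p there were 7.16 [4.93 to 10.7] reads of miR-351-5p in Wt1 KO with RA and 22.6 [21.6 to 23.6] in WT with RA. Without RA the ratio was 40.2 [27.8 to 60.3] in untreated Wt1 KO, 36.2 [24.7 to 55.3] and 23.2 [19.6 to 27.7] at 12 h and 24 h of dox, and 53.8 [37.9 to 78.8] in untreated WT. The ratio was thus lower with RA in both genotypes and lowest in Wt1 KO with RA. As log2 changes, RA against no treatment gave -2.49 [-3.23 to -1.74] in Wt1 KO and -1.23 [-1.74 to -0.73] in WT, and Wt1 KO against WT gave -1.68 [-2.21 to -1.14] with RA and -0.42 [-1.15 to 0.31] without treatment. The difference between the RA responses of this ratio, Wt1 KO minus WT, was -1.25 [-2.16 to -0.35]. Measured against miR-322-3p in place of miR-322-5p it was -1.60 [-2.44 to -0.76]. After 24 h of dox the ratio to miR-322-5p was also lower than in untreated Wt1 KO, by a log2 change of -0.78 [-1.36 to -0.19]. The ratio to miR-322-3p did not differ there beyond counting error, at 0.22 [-0.38 to 0.83].

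The same difference of RA responses can be taken for each member alone, and there it depends on the scaling. It was -0.71 [-0.93 to -0.50] for miR-351-5p, 0.54 [-0.34 to 1.42] for miR-322-5p and 0.89 [0.07 to 1.70] for miR-322-3p, with none of the 3 members past the size rule. Of all entries analysed, 23.1% were higher and 15.1% lower by this measure. With plain CPM the median entry shifted by 0.60, and miR-351-5p was at -0.12. The ratio of miR-351-5p to the miR-322 arms is unaffected by this shift. Beside these values, the ES cell markers summed to 47547 CPM in Wt1 KO with RA and 5012 in WT with RA, and the HOX cluster miRNAs to 18410 in Wt1 KO with RA and 99053 in WT with RA. Of the HOX cluster miRNAs, miR-196a-5p went the other way, at 1.03 [0.20 to 1.68] in Wt1 KO against WT with RA. The part of these differences between the RA libraries in the values of the members was not tested.

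The 2 arms of the miR-322 hairpin were read about equally in most libraries. The 3p arm held 52.9% [41.2 to 64.3] of the hairpin's reads in Wt1 KO with RA, 52% [50.5 to 53.5] in WT with RA, 51.7% [39.3 to 63.8] in untreated Wt1 KO, 40% [27 to 54.5] and 34.7% [28.7 to 41.4] at 12 h and 24 h of dox, and 56.8% [45.4 to 67.4] in untreated WT (Wilson intervals). The level of the hairpin's products was 8.19-fold to 15.1-fold higher with RA within a genotype, while the share of the arms was not distinguishable between them outside dox. After 24 h of dox the 3p arm held less, a log2 change of the ratio of 3p to 5p reads of -1.0 [-1.83 to -0.17] against untreated Wt1 KO. In WT with RA, where the other hairpins had the most reads, their arms were unequal. There the 3p arm held 66.7% [59.4 to 73.2] of the miR-503 reads, 23.7% [17.3 to 31.5] of the miR-542 reads, 11% [7.19 to 16.6] of the miR-450b reads and 0.219% [0.18 to 0.267] of the miR-351 reads. The named members miR-503-5p and miR-542-3p were thus the minor arms of their hairpins in this library. In the other libraries miR-503 had 9 or fewer reads in all and no fixed major arm, with 1 read of the 3p arm and 7 of the 5p arm in untreated Wt1 KO (12.5% [2.24 to 47.1]) and equal counts at both dox times.

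**Figure D4:**
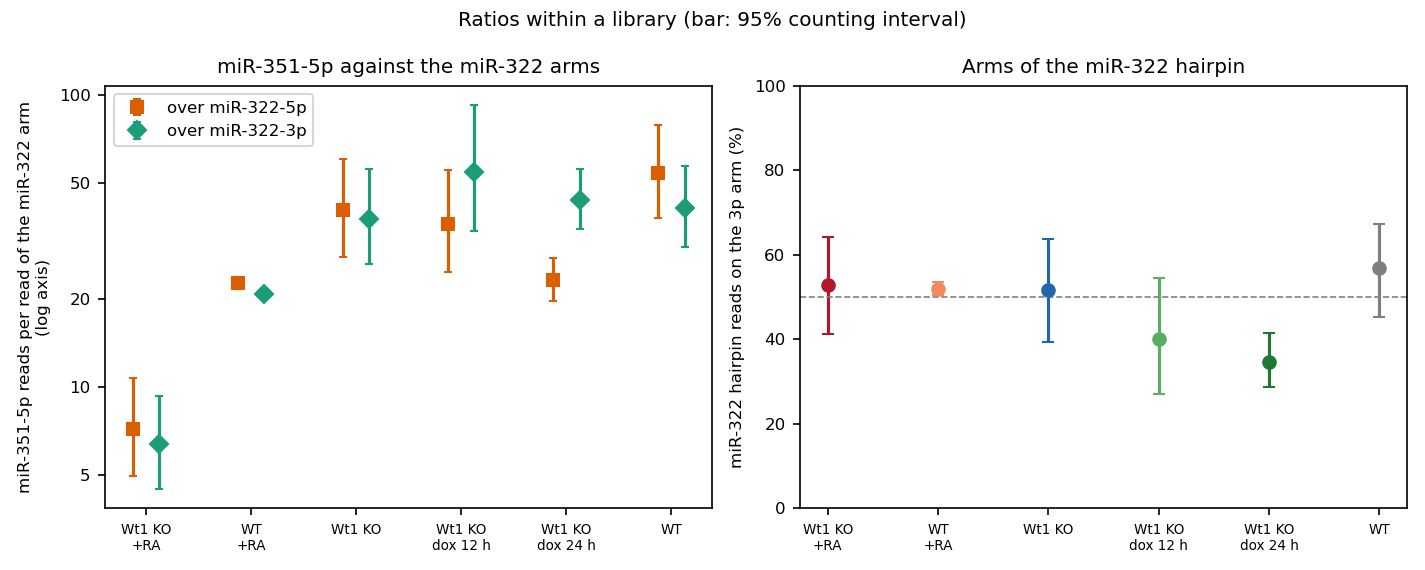
Left: reads of miR-351-5p per read of miR-322-5p and of miR-322-3p in each library (log axis); right: share of the miR-322 hairpin's reads on the 3p arm, with a dashed line at 50%. Bars are 95% counting intervals. The ratio to miR-322-5p is lowest in Wt1 KO with RA (7.16), and the 3p share is lowest after 24 h of dox (34.7%).

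Untreated Wt1 KO was compared with untreated WT, with 1 library of each. Here and between the RA libraries, loss of Wt1 and other differences between the KO and WT cells cannot be told apart. All 3 analysed members had lower levels in Wt1 KO, none past the size rule, against 15.4% of entries called lower and 12.3% called higher. miR-351-5p had 826.3 CPM in Wt1 KO and 1579 in WT, a log2 ratio of -0.93 [-1.04 to -0.83], so its interval excludes 0 while its size is just inside the rule. With plain CPM it was -1.29 and past the rule, the median entry having shifted by -0.36. miR-322-3p was at -0.81 [-1.53 to -0.11] and miR-322-5p at -0.51 [-1.29 to 0.26]. miR-503-5p at 0.36 [-1.54 to 2.65] and miR-450a-5p at -0.19 [-1.84 to 1.52] rest on fewer than 10 reads in each library. miR-542-5p had 4 reads in Wt1 KO and 13 in WT, at -1.96 [-4.15 to -0.38].

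After 12 h of dox, compared with untreated Wt1 KO, no analysed member was called, against 4.27% of entries called higher and 8.55% lower. miR-351-5p was at 0.06 [-0.06 to 0.19], miR-322-5p at 0.22 [-0.60 to 1.02] and miR-322-3p at -0.45 [-1.39 to 0.42]. After 24 h none was called either, against 5.7% higher and 3.7% lower, while 2 members had intervals that exclude 0. miR-322-5p had 40.86 CPM after 24 h and 20.55 in untreated Wt1 KO, 0.97 [0.41 to 1.62], which is just inside the size rule and was 1.20 with plain CPM. miR-351-5p was at 0.20 [0.10 to 0.29] and miR-322-3p at -0.03 [-0.64 to 0.64]. miR-503-5p, below the minimum count, had 4 reads after 24 h and 7 in untreated Wt1 KO, at -2.01 [-4.30 to -0.10]. Between 24 h and 12 h of dox none was called (4.27% of entries higher and 1.14% lower), with miR-322-5p at 0.76 [0.17 to 1.43], miR-322-3p at 0.42 [-0.31 to 1.28] and miR-351-5p at 0.13 [0.03 to 0.24]. At both times the level of miR-351-5p was below its 1579 CPM in untreated WT.

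The seed family of each member sets what its level adds to the miRNAs that can bind the same sites. For miR-322-5p, 10 mouse entries carry the seed AGCAGCA, of which 6 reached the minimum count, namely miR-15a-5p, miR-15b-5p, miR-16-5p, miR-195a-5p, miR-497a-5p and miR-322-5p. The family summed to 5951 CPM in Wt1 KO with RA, 4573 in WT with RA, 5246 in untreated Wt1 KO, 6540 and 7623 at 12 h and 24 h of dox, and 4851 in untreated WT. miR-322-5p made up 4.98% [3.55 to 6.94] of its reads in Wt1 KO with RA, 6.45% [6.19 to 6.74] in WT with RA, 0.392% in untreated Wt1 KO, 0.365% and 0.536% at 12 h and 24 h of dox, and 0.605% [0.429 to 0.853] in untreated WT. In normalised CPM the sum of the family was thus lowest in WT with RA and highest in the 24 h dox library. In that library miR-16-5p, the largest member of the family throughout, was at 0.75 [0.70 to 0.79] against untreated Wt1 KO. Both ends of this order depend on the scaling. As a share of all reads, with miR-503-5p counted in, the family peaked in Wt1 KO with RA, at 0.7689% against 0.7146% in the 24 h dox library. By that measure untreated Wt1 KO was lowest, at 0.4189% against 0.5023% in WT with RA. The share of miR-322-5p was higher with RA in both genotypes.

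The seed relatives of miR-322-5p are encoded at other loci and had other ratios with RA. With RA in WT cells miR-16-5p was at -0.05 [-0.11 to -0.00], miR-15b-5p at -0.32 [-0.40 to -0.23] and miR-15a-5p at 0.25 [-0.07 to 0.60], while miR-497a-5p was lower, at -2.59 [-2.86 to -2.31], as was miR-195a-5p at -1.99 [-2.94 to -0.97]. With RA in Wt1 KO cells miR-16-5p was at 0.36 [0.22 to 0.50] and miR-497a-5p at -2.16 [-3.09 to -1.46]. Of the 6 analysed members of the miR-15 and miR-16 list, 1 was called higher with RA in WT, against 22.2% of all entries analysed (median -0.19, against 0.13 over all entries), and 1 in Wt1 KO, against 23.6% (median 0.03, against -0.06). Such a count is near the share over all entries, and in both genotypes the entry called was miR-322-5p. Within a library, the ratio of miR-322-5p to miR-16-5p was higher with RA by a log2 change of 3.48 [2.75 to 4.22] in Wt1 KO and 3.36 [2.86 to 3.86] in WT.

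For miR-351-5p, 5 mouse entries carry the seed CCCUGAG, and 3 of them (miR-125a-5p, miR-125b-5p and miR-351-5p) reached the minimum count. The family summed to 11551 CPM in Wt1 KO with RA, 41155 in WT with RA, 7691 in untreated Wt1 KO, 6612 and 9230 at 12 h and 24 h of dox, and 23701 in untreated WT. miR-351-5p held 18.3% [16.3 to 20.6] of these reads in Wt1 KO with RA, 16.2% [16 to 16.3] in WT with RA, 10.7% in untreated Wt1 KO, 13.1% and 10.3% at 12 h and 24 h of dox, and 6.66% [6.36 to 6.97] in untreated WT. Here the family as a whole was higher in the WT libraries, with miR-125a-5p the largest member in all 6.

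The relatives of miR-351-5p are encoded on other chromosomes, and with RA the 3 were all lower in Wt1 KO than in WT. For miR-125a-5p the log2 ratio was -1.81 [-1.91 to -1.72], for miR-125b-5p it was -2.26 [-2.56 to -2.0] and for miR-351-5p -1.65. The ratio of miR-351-5p to miR-125a-5p was 0.251 in Wt1 KO with RA and 0.224 in WT with RA, a log2 change of 0.17 [-0.04 to 0.38]. The ratio of miR-351-5p to miR-125b-5p was 2.14 in Wt1 KO with RA and 1.39 in WT with RA, a log2 change of 0.62 [0.29 to 0.95]. Between the RA libraries miR-351-5p thus did not differ beyond counting error against miR-125a-5p, was higher in Wt1 KO against miR-125b-5p, and was lower in Wt1 KO against its neighbour miR-322-5p. Without treatment, Wt1 KO against WT gave -1.68 [-1.71 to -1.64] for miR-125a-5p and -2.31 [-2.59 to -2.04] for miR-125b-5p, both called lower. With RA in WT, the log2 ratio of miR-125a-5p was 0.46 [0.44 to 0.48] and that of miR-125b-5p 3.28 [3.16 to 3.41], on either side of the 2.08 of miR-351-5p. In Wt1 KO they were at 0.32 [0.22 to 0.42] for miR-125a-5p and 3.33 [2.95 to 3.70] for miR-125b-5p, again with miR-351-5p between them.

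**Figure D5:**
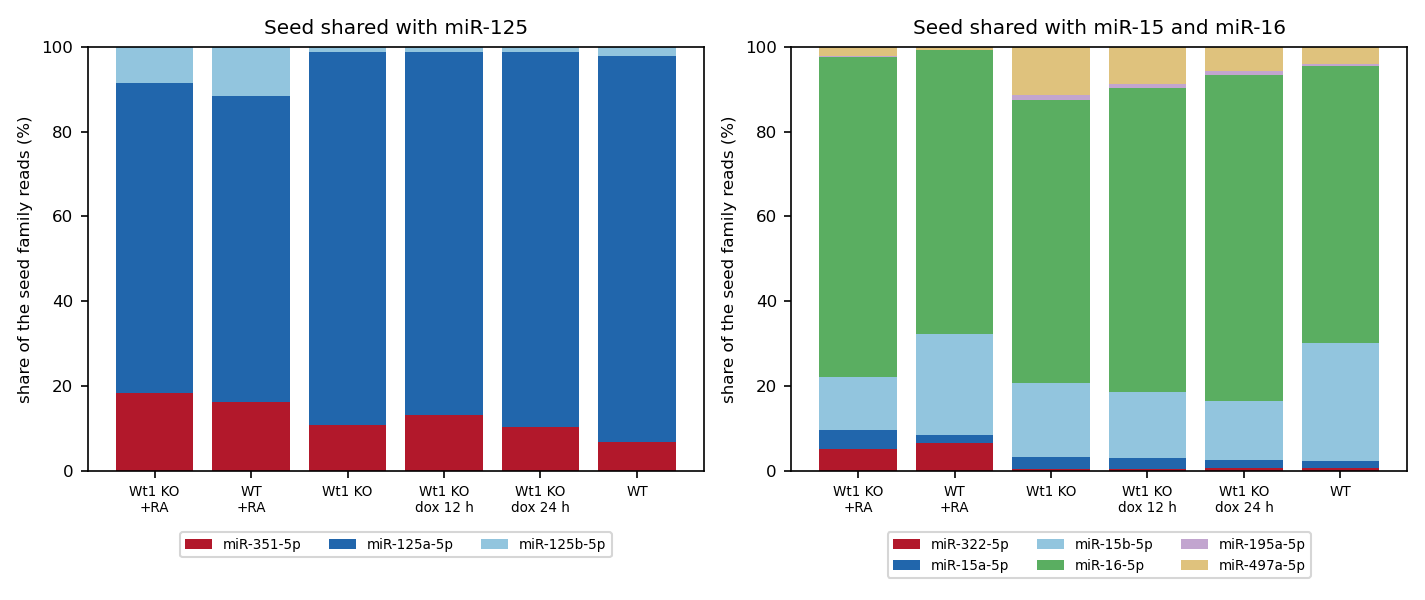
Shares of reads (percent, bars from 0) within the seed family of miR-351-5p (left) and of miR-322-5p (right) in each library, for the entries with reads. With RA the share of miR-322-5p is 4.98% in Wt1 KO and 6.45% in WT, and below 1% in the other 4 libraries; miR-351-5p holds between 6.66% and 18.3% of its family.

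Other miRNAs of the X chromosome were set beside the cluster by a list of 35 mature miRNAs from the miR-106a, miR-221, miR-374, miR-532, miR-465 and other X-linked loci, of which 34 are in the tables and 18 reached the minimum count. With RA in WT, 1 of the 18 was called higher and 9 lower, where 22.2% of all entries were higher and 24.2% lower (median -1.30, against 0.13 over all entries). The 1 higher was miR-652-3p, just past the size rule, with 673.5 CPM in WT with RA and 326.8 in untreated WT, at 1.04 [0.89 to 1.20], while miR-363-3p was at -3.06 [-3.17 to -2.95]. miR-92a-3p, which a second locus on another chromosome also encodes, was at -1.68 [-1.69 to -1.67], and miR-532-5p at -0.03 [-0.13 to 0.08]. With RA in Wt1 KO, 8 were called higher and 6 lower, where 23.6% of all entries were higher and 22.5% lower (median 0.02, against -0.06), with miR-652-3p at 1.91 [1.54 to 2.25] and miR-532-5p at 1.84 [1.56 to 2.10]. Most X-linked calls with RA in WT were thus lower, and those in Wt1 KO went both ways.

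Markers of other cell types were read for the whole lists, since the miR-322 hairpin is known from mesoderm and muscle. The 6 markers of muscle and mesoderm summed to 3665 CPM in Wt1 KO with RA, 885.9 in WT with RA, 467.7 in untreated Wt1 KO, 637 and 581.4 at 12 h and 24 h of dox, and 328.6 in untreated WT. The higher sum in Wt1 KO with RA was that of miR-143-3p, with 3443 CPM there and 455.6 in WT with RA. miR-133a-3p went the other way, with 222.1 CPM in Wt1 KO with RA and 422.7 in WT with RA, at -0.90 [-1.57 to -0.35]. The 2 members of this list that reached the minimum count, miR-143-3p and miR-133a-3p, were called higher with RA in each genotype, where 22.2% of all entries were higher in WT and 23.6% in Wt1 KO. miR-133a-3p reached the minimum mostly through WT with RA, with 2830 reads there and 12 to 118 in the other libraries. Their number therefore adds nothing to their ratios, which in WT were 1.14 [0.95 to 1.34] for miR-143-3p and 1.96 [1.70 to 2.24] for miR-133a-3p. miR-145a-5p, below the minimum, had 7.319 CPM in WT with RA and 13.77 in untreated WT, at -0.94 [-1.77 to 0.03], and no read in Wt1 KO with RA against 21.26 CPM in untreated Wt1 KO, which is under the limit of 27.8 CPM there. The defining muscle markers miR-1a-3p and miR-206-3p had no read in any library. The 8 fibroblast and mesenchyme markers summed to 25472 CPM in Wt1 KO with RA, 34572 in WT with RA, 16035 to 31022 in the Wt1 KO libraries without RA and 61459 in untreated WT. Most of this sum was miR-22-3p, with 32464 CPM in WT with RA and 57033 in untreated WT. The members went both ways with RA in WT. Of the 6 analysed, 2 were called lower and 1 higher (miR-199b-3p/miR-199a-3p, 1.55 [1.13 to 2.03]), against 24.2% and 22.2% of all entries. Below the minimum, miR-199a-5p was at 2.22 [0.62 to 5.60] and miR-214-3p at 3.21 [1.27 to 9.11]. In the list of 6 blood and endothelium markers, miR-223-3p and miR-451a were at 0 in all 6 libraries, and the sum was 314.7 CPM in Wt1 KO with RA, 134.6 in WT with RA and 913.3 to 4278 without RA. The 3 neural markers summed to 327.7 to 638.5 CPM over the 6 libraries and the 4 endoderm markers to 177.9 to 360.4 CPM. Their part in the levels of the cluster was not tested.

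The entries whose log2 levels followed miR-322-5p most closely over the 6 libraries, outside the locus, were miR-377-5p (Pearson's r = 0.996), miR-125b-2-3p (0.975), miR-99a-5p (0.97), miR-10a-5p (0.97) and miR-301a-3p (0.969). These coefficients describe 6 libraries that fall into 2 with RA and 4 without, and under other scalings as few as 1 of the 5 stayed in the list. The size of the change differed widely among them. miR-377-5p had 185.1 CPM in Wt1 KO with RA, 193.7 in WT with RA, 127.6 in untreated Wt1 KO and 129.4 in untreated WT, whereas miR-10a-5p, from a HOX gene cluster, had 13356 in Wt1 KO with RA, 73357 in WT with RA and 60.58 to 82.6 without RA. miR-125b-2-3p had 259.2 CPM in Wt1 KO with RA and 259 in WT with RA, nearly equal in both as miR-322-5p was, and 1.767 to 3.543 without RA. For miR-542-3p, which is at 0 in 4 libraries, the 5 closest were miR-301b-3p (0.985), miR-10a-3p (0.98), miR-218-5p (0.974), miR-410-3p (0.968) and miR-431-5p (0.966), and these coefficients rest on 33 reads of miR-542-3p in all.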

How the data were processed

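The deposited values are whole-number counts of reads for each mature miRNA, kept apart, per the file headers, by whether a read matched uniquely or at several entries. Per the labels' protocols, total RNA was ligated to adapters and the gel bands of miRNA and of somewhat longer small RNA were pooled. Neither the aligner nor the genome build or miRBase version is given in the sources used here. For scaling, unique-match counts of the 6 libraries went through TMM (trimmed mean of M values; edgeR 4.0.16, R 4.3.3). Log2 ratios used a prior count of 0.5, with an exact conditional binomial interval at 95%. The difference of RA responses has a delta-method interval on its counts, and shares have Wilson intervals (Python 3.11.15, SciPy 1.17.1). The calculation was tested on simulated data. No test between groups was possible with 1 library each. PCR reads without molecular identifiers are not independent molecules, so intervals and floors cover counting error only. Entries with a mean unscaled count of at least 50 (18.5% of 1899, of which 1198 had a read) were analysed, a mean in which WT with RA weighs most. Of the 6 members, 3 reached it and 3 did not. Named entries are the members, the other arms of their hairpins, analysed entries sharing a seed, the 5 entries most correlated with miR-322-5p and with miR-542-3p, and the 4 most abundant of each list. Other markers were named after their values were seen. The members and lists were chosen with earlier results of these data known. Alternatives were other scalings (DESeq2 1.42.0 for the median of ratios), minimum counts, prior count, added multi-matches and a 1.5-fold rule.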

Additional observations from a re-analysis of the deposited data

How the results depend on the processing

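No paired analysis was possible because each group has 1 library, and for the same reason no replicate could be left out. No result changed sign once called, and the calls with RA in WT, with RA in Wt1 KO and of miR-351-5p in Wt1 KO against WT with RA held under all 10 alternatives. Over these settings miR-322-5p ranged from 3.16 to 3.41 with RA in WT and from 3.49 to 4.54 with RA in Wt1 KO, and miR-351-5p from 1.93 to 2.17 in WT and from 1.01 to 2.06 in Wt1 KO. For untreated Wt1 KO against WT the members called lower numbered 2 with plain CPM (on the library total), 2 with CPM that leaves out the stem cell clusters miR-290 and miR-302, 2 with a 1.5-fold rule and 1 with a minimum mean count of 10, against 0. With RA in WT, 5 members were called higher without a minimum count and 4 with a minimum mean count of 10, against 3. For 24 h of dox against untreated Wt1 KO, 1 member (miR-322-5p) was called higher with plain CPM, by the median of ratios, with CPM leaving out the stem cell clusters, with a minimum of 10, with no minimum and with the 1.5-fold rule, against 0. Between 24 h and 12 h of dox it was 1 with the 1.5-fold rule. For the difference of RA responses, 2 members were called higher with plain CPM, 2 with CPM leaving out the stem cell clusters, 1 by the median of ratios and 1 with the 1.5-fold rule, and 1 was called lower without a minimum and 1 with the 1.5-fold rule, each against 0. The scaling moved the calls over all entries too. With RA in Wt1 KO 83 were higher and 79 lower, or 116 and 41 with CPM leaving out the stem cell clusters. After 12 h of dox they were 15 and 30, or 44 and 9 with CPM leaving out the stem cell clusters. For untreated Wt1 KO against WT 43 were higher and 54 lower, or 24 and 78 with plain CPM. For Wt1 KO against WT with RA they were 66 and 67, or 93 and 37 with CPM leaving out the stem cell clusters, for 24 h of dox 20 and 13, or 37 and 6, and for the difference of RA responses 81 and 53, or 140 and 13. Beyond the construction of each scaling, the cause was not tested. In Wt1 KO with RA the median analysed entry had 16 reads, which limits each comparison with that library, and 3 of the 6 members were too scarce to compare outside WT with RA.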
